A study of Mus musculus with 14 samples.

Results

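Compact intergenic NKX2.2 regions near genes are the narrow stretches of bound chromatin that lie between protein-coding genes but close to one of them. They were taken from the authors' deposited csaw table by position and size alone. A region was kept if it lay on chromosomes 1 to 19 or X, started at base 3500000 or later, was built from under 7 windows, and had its midpoint outside all protein-coding genes, more than 1 kb and at most 50 kb from the nearest protein-coding gene end. This left 1232 of the 6758 regions of the table, or 18.2%. Neither the fold change nor the p-value entered the choice.

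The study asked whether NKX2.2 occupancy changes when Klf4 is knocked down. Chromatin of alphaTC6 cells, a mouse tumour line of glucagon-producing alpha-cell type with the genotype given as WT, was immunoprecipitated with an antibody against NKX2.2 and sequenced. The cells had been reverse-transfected with Lipofectamine RNAiMax for 48 h, with a Klf4 siRNA in 3 samples and a scrambled siRNA in 4, described as biological replicates. The same numbers of input samples, sheared chromatin without the antibody, were not analysed here. The table gives 1 value per region for the comparison of both groups, with no value per library, so neither a spread between cultures nor a sequencing depth can be shown. It also does not name the numerator of the fold change. A positive log2 fold change is therefore given as listed up and a negative one as listed down, which leaves unsaid which group had more NKX2.2. Every log2 fold change, p-value and FDR below is a value of the authors' deposited table. The table holds no expression values, so neither the extent of the Klf4 knockdown nor the alpha-cell identity of the cultures was checked.

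NKX2.2 is a homeodomain transcription factor needed for the islet endocrine lineages, where it can activate genes and can also repress them through Groucho/TLE corepressors. Homeodomains of its class bind DNA around an AAGTG core. KLF4 is a zinc-finger factor of the Krüppel-like family, which binds GC-rich and CACCC-type elements. Binding sites between genes are often parts of enhancers, which can act on a promoter many kilobases away and need not act on the nearest one. The nearest gene is used below as an address, not as a target.

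Reference sequence was at hand for the regions that overlap the start of a RefSeq gene that does not code for protein. Of the 1232 regions, 37 overlapped such a start window, defined as 250 bases before to 50 bases after a gene's start, and 24 of them lay wholly inside it. There were 38 such windows in all, and every one belongs to a long non-coding RNA (lncRNA). In the authors' deposited table, 18 of the 37 regions were negative and 19 positive, with a median of 0.001. Only 3 of the 37 fell below 0.05 in their unadjusted p-value. That is a smaller share than the 11.2% of the whole table, so the 3 are no excess over its background. The windows of these 3 are printed first, followed by both windows in which the deposited region itself holds the extended core TNAAGTG. Sequences are from RefSeq, build GRCm38.p6, 5′ to 3′ on the strand of the lncRNA. Capitals mark the bases inside the deposited NKX2.2 region.
Gm30338, chr11:121794680-121794979, plus strand: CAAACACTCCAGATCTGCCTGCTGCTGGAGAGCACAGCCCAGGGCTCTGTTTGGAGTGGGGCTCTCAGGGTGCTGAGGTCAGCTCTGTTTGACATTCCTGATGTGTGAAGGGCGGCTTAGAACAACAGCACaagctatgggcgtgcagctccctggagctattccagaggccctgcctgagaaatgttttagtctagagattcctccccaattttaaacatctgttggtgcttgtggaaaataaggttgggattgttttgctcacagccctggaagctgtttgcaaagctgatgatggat
Gm30263, chr19:10366228-10366527, minus strand: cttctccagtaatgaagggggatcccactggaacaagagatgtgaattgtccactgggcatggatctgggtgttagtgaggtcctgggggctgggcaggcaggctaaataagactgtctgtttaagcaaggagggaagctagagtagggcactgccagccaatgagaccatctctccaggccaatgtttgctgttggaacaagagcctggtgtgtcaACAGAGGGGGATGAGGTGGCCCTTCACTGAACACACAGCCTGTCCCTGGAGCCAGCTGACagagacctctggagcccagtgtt
Gm36477, chr14:76033235-76033534, plus strand: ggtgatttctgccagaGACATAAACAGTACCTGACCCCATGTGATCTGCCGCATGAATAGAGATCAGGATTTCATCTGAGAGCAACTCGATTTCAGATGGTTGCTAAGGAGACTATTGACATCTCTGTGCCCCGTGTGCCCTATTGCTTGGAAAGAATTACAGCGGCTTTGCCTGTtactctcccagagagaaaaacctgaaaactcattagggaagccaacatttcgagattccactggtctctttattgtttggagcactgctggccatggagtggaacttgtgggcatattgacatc
A930006K02Rik, chr16:91464854-91465153, plus strand: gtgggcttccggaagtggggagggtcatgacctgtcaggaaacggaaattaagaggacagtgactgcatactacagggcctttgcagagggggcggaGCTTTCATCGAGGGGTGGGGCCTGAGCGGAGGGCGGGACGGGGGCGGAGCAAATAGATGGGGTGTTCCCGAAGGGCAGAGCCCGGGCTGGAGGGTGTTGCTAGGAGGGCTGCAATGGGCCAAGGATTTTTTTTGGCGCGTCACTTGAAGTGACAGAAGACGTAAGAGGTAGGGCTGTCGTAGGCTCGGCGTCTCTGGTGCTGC
Gm34253, chr11:102375219-102375518, plus strand: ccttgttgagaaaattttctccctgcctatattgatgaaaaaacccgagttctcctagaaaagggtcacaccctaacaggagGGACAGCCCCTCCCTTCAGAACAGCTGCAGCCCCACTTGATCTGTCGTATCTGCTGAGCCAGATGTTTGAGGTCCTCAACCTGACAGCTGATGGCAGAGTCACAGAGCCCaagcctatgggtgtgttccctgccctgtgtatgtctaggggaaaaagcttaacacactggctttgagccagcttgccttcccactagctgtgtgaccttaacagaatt

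In the authors' deposited table, the Gm30338 region, 35.5 kb from Ptchd3, had a log2 fold change of -0.68 (p = 0.00584, FDR 0.156). The Gm30263 region, 22.5 kb from the exocytosis gene Syt7, stood at -0.85 in the authors' deposited table (p = 0.0175, FDR 0.273). At Gm36477, 22.5 kb from Gtf2f2, which encodes a subunit of the general transcription factor TFIIF, the value in the authors' deposited table was 0.48 (p = 0.0175, FDR 0.273). None of these 3 windows holds AAGTG on either strand. At A930006K02Rik, 19977 bp from the interferon receptor gene Ifnar1, the region had 0.41 in the authors' deposited table (p = 0.0542) and holds 2 extended cores on opposite strands, which overlap. CACTTGA spans bases 238 to 244 of the printed window, and TGAAGTG bases 242 to 248. The Gm34253 region, 10.1 kb from Slc4a1, the chloride-bicarbonate exchanger of red cells, has CACTTGA at bases 116 to 122 and a value of -0.39 in the authors' deposited table (p = 0.213). The region at the start of Malat1, an abundant nuclear lncRNA, was 1 window of 10 bp at -0.59 (p = 0.0555 in the authors' deposited table).

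Motifs were counted on both strands of the 38 windows and of all 32851 RefSeq start windows of 300 bases. AAGTG was found in 12 of the 38 (31.6%) and in 46.4% of all windows, and in 7 the match lay in the deposited region. TNAAGTG, which contains AAGTG, was in 5 of 38 (13.2%, against 11.5% of all) and in the region itself in 2. Of the KLF-class elements, CACCC was in 55.3% of the 38 and 57.5% of all windows, and CCNCNCCC, which can overlap it, in 57.9% and 49.5%. The forkhead motif TGTTTAC and the homeobox motif TAATTA were each in 3 of the 38 windows, or 7.89%, against 3.65% and 5.29% of all. The MAF-type element TGCTGA stood at 18.4% against 19.5%, and the E-box CANNTG at 73.7% against 72.3%. With 38 windows these shares are a description of the letters present. The 38 are all lncRNA starts, whereas the full set also holds starts of protein-coding genes, so the shares compare unlike sets. A match in a window can lie outside the deposited region, and matches inside the region have no background share here. Median GC content was 56.0% in the 38 windows and 52.7% in all.

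At a false discovery rate (FDR) of 0.05, 10 of the 1232 compact intergenic regions differed between knockdown and scramble ChIP samples in the authors' deposited table, 8 listed as up and 2 as down. That is 0.812% of them, beside 1.36% of all 6758 regions. By direction, the shares were 0.649% listed as up beside 0.769% in the whole table, and 0.162% listed as down beside 0.592%. The share of calls was thus not above that of the whole table, which also holds the broad regions. Of all 6131 compact regions, 0.734% were called, 0.522% listed as up and 0.212% as down. The smallest FDR among the 1232 was 0.011, so none passed an FDR of 0.01. Of all regions 0.592% did, and of the 6131 compact ones 10 did. The best-window FDR of the table, in place of the combined one, also gave 10, each of which was among the same 10. The FDR is csaw's, adjusted by the Benjamini-Hochberg method over all regions.

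The smallest FDR belonged to a region of 210 bp on chromosome 10 from 62740051 to 62740260. It lies 3.77 kb downstream of Ccar1, which encodes a regulator of cell cycle and apoptosis that also works as a transcriptional coactivator. Its log2 fold change was 0.70 by the authors' deposited table (p = 6.97e-05, FDR 0.011), with 4 windows of 5 counted up. No other region of the table had Ccar1 as its nearest gene, and the next region along the chromosome lay 180400 bp away with a value of -0.73.

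Only 1 of the 10 had a gene of the islet lists as its nearest gene. This was Dlk1, an imprinted gene for a transmembrane relative of the Notch ligands. It spans 109441951 to 109442160 on chromosome 12, 10.4 kb upstream of the gene's start. By the authors' deposited table its log2 fold change was 0.68 (p = 0.000324, FDR 0.0327), with 3 of 5 windows counted up and none down. On the same chromosome, a region from 111691701 to 111691910 lies 7.90 kb downstream of Trmt61a, the catalytic subunit of a tRNA methyltransferase, and had 0.61 in the authors' deposited table (FDR 0.0327). A single-window region 100 bp from an end of Trmt61a stood at 0.54 without passing the threshold (FDR 0.621).

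The third up call on chromosome 12 was a single window from 26438101 to 26438110, 4.64 kb downstream of Rsad2, the interferon-induced antiviral protein viperin, with a deposited log2 fold change of 1.25 (FDR 0.043). Inside Rsad2 another region of 2 windows was listed at -0.07 (FDR 1.0). The other single-window call, on chromosome 6 from 38531351 to 38531360, lies 3.51 kb upstream of Fmc1, an assembly factor of the mitochondrial ATP synthase. It had 1.32 in the authors' deposited table (FDR 0.0332), whereas a region of 4 windows 31 bp from the gene had -0.14 (FDR 1.0).

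The highest fold change of all 1232 belonged to a region on chromosome 9 from 121795051 to 121795160, 2.52 kb downstream of Ccdc13, a coiled-coil protein of centriolar satellites. All 3 of its windows were counted as up, and the deposited log2 fold change was 1.41 (FDR 0.0329). A second region, inside Ccdc13, had 0.42 (FDR 0.713). At Aloxe3, a lipoxygenase of the skin barrier, the called region spans 69151151 to 69151310 on chromosome 11, 2.12 kb from the gene, with a deposited value of 1.15 (FDR 0.043). The remaining up call, on chromosome 13 from 49178901 to 49179110, lies 8.52 kb upstream of Ninj1, a membrane protein that mediates plasma membrane rupture in dying cells, and within the lncRNA Gm40943. It had 0.51 in the authors' deposited table (FDR 0.0247). The 8 up calls thus ran from 0.51 to 1.41, with a median of 0.92, and all lay between 2115 and 10430 bp from their gene. The median distance of all 1232 regions was 11947 bp.

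The 2 down calls were unlike each other in size. On chromosome 1 from 171545951 to 171546060, 10.7 kb upstream of Itln1, a carbohydrate-binding lectin, all 3 windows were counted as down. The deposited log2 fold change was -1.27 (FDR 0.0297), the lowest of the 1232. It sits in a stretch where the table lists further negative regions. The other 4 regions nearest to Itln1 had deposited values between -1.61 and -0.66, 1 of them also at an FDR under 0.05, and the next region, 2375 bp away at Cd244a, had -1.10. The second down call, on chromosome 9 from 24542001 to 24542210, lies 14.9 kb downstream of Dpy19l2, a gene needed for the sperm acrosome. All 5 of its windows were counted as down, although the fold change listed for it by the authors was only -0.30 (FDR 0.0412). No other region lay within 984350 bp of it.

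**Figure D1:**
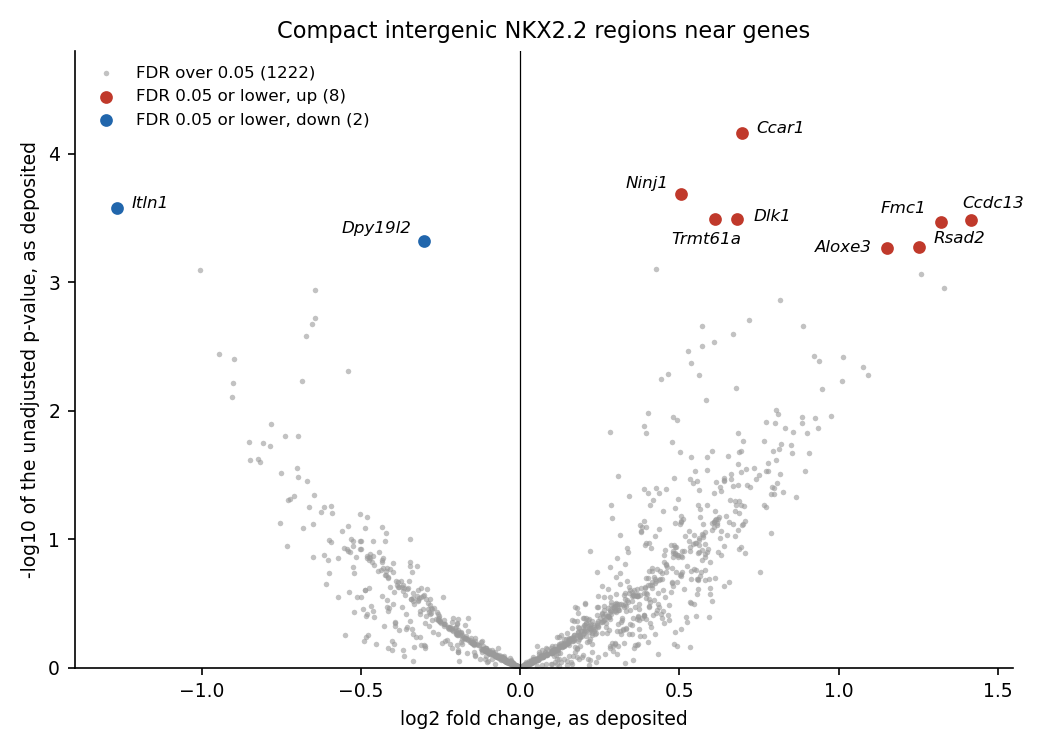
Each point is 1 of the 1232 compact intergenic regions, with its deposited log2 fold change on the x axis and -log10 of its deposited unadjusted p-value on the y axis; colours mark the 8 up and 2 down calls at an FDR of 0.05, named by nearest gene. Ccar1 has the smallest p-value, Ccdc13 the highest and Itln1 the lowest fold change.

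A further 11 regions had an FDR between 0.05 and 0.1, which brings the count at 0.1 to 21 of 1232. That is 1.70%, beside 2.31% of all regions and 1.45% of all compact regions. Of the 1232, 15 were listed as up and 6 as down at this FDR, beside 95 (1.41%) and 61 (0.903%) of all 6758 regions. None of the 11 passed the threshold of 0.05. Among them was a region 12290 bp from Pitx1, a homeodomain factor of hindlimb and pituitary, at 0.82 in the authors' deposited table (FDR 0.0722) and 4 of 6 windows counted as up. Others listed as up lay near Hsfy2, of the heat shock factor family (1.33, FDR 0.0669), the nucleoporin gene Nup50 (1.26, FDR 0.0604), the spindle checkpoint kinase Ttk (0.89, FDR 0.0959), the glutamine synthetase gene Glul (0.72, FDR 0.092), Kl, which encodes the FGF co-receptor klotho (0.57, FDR 0.096), and Prps1l1 (0.43, FDR 0.0566). Those listed as down lay near Tcp10c (-1.01, FDR 0.0574), the dendritic-cell lectin gene Cd209a (-0.65, FDR 0.095), Rpap2 (-0.64, FDR 0.0912) and Mid1 (-0.64, FDR 0.0681). Mid1 spans the boundary of the pseudoautosomal region of the mouse X chromosome. Each of these 4 down regions had all 4 of its windows counted as down in the deposited table. The next lowest fold changes of the authors' deposited table were at Hes1, the Notch target and repressor (-0.95, FDR 0.128), 1102 bp from the gene, at Dspp (-0.91, FDR 0.18) and at Zfp982 (-0.90, FDR 0.159).

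Below the threshold the compact intergenic regions leaned towards positive values. The scaling of the fold changes is not given, so the sign of this lean depends on an unknown setting. An unadjusted p-value under 0.05 was deposited for 146 of the 1232 (11.9%, beside 11.2% of all regions). The sign was positive for 116 and negative for 30, which is 9.42% and 2.44% of the 1232, beside 7.55% and 3.68% in the table. The median log2 fold change of the 1232 was 0.11, with quartiles at -0.11 and 0.40, and 37.6% of the values were negative. Over all 6758 regions the median was 0.04 and 43.2% were negative. The authors' direction column, which takes all windows of a region into account, called 674 up, 342 down and 216 mixed. At least 1 window was counted as up in 116 regions and as down in 30. These numbers equal those of positive and negative regions at an unadjusted p-value under 0.05, so they are not a separate sign of the lean. The median was positive on all 20 chromosomes, from 0.01 on chromosome 7 to 0.31 on X, where 24 regions were listed.

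The lean was not seen in compact regions at gene ends and was seen in the other compact classes, which were built with the same limits on windows, start and chromosome. The 1652 compact regions within 1 kb of a gene end had a median deposited log2 fold change of -0.05, with 58.6% negative. The 2405 inside genes and over 1 kb from an end had 0.09 and 37.3%, and the 842 beyond 50 kb had 0.10 and 35.9%. Calls at an FDR of 0.05 numbered 4 (0.242%) at gene ends, 24 (0.998%) inside genes and 7 (0.831%) beyond 50 kb, beside the 0.812% of the intergenic regions near genes. At an unadjusted p-value under 0.05, gene ends had 46 up (2.78%) and 72 down (4.36%), and genes 198 (8.23%) and 54 (2.25%). The regions beyond 50 kb had 73 (8.67%) and 17 (2.02%), beside 7.55% and 3.68% of all regions. The differences between classes were not tested, since the table has no libraries over which to test them. In median, negative share and share of calls at 0.05, the intergenic regions near genes resembled those inside genes and farther out. An FDR of 0.01, which 0.592% of all regions passed, was passed by none of the 1232. It was passed by 1 of 1652 at gene ends, 6 of 2405 inside genes and 3 of 842 beyond 50 kb.

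**Figure D2:**
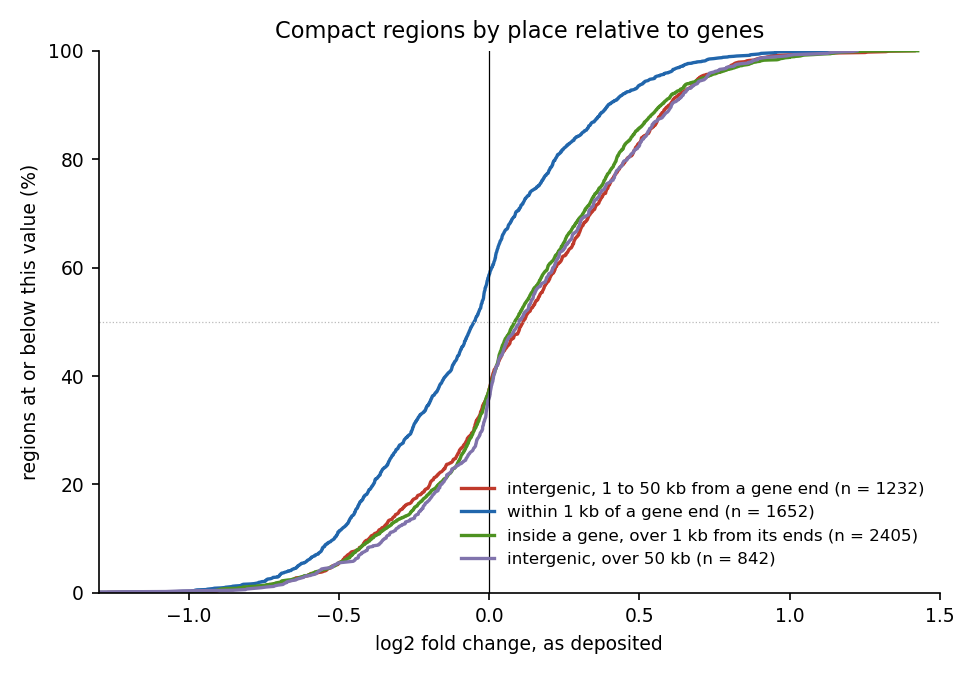
The curves give, for each class of compact regions, the percentage of regions (y axis) at or below a deposited log2 fold change (x axis). The curve of the 1232 regions runs beside those of regions inside genes and beyond 50 kb, while the curve of regions within 1 kb of a gene end lies to the left, with 58.6% of its values below 0.

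Among themselves the regions varied little with distance. Their distance to the nearest gene end had a median of 11947 bp and quartiles at 5034 and 25730 bp. In the authors' deposited table the median log2 fold change was 0.08 for the 186 regions at 1 to 3 kb, 0.13 for the 360 at 3 to 10 kb, and 0.12 for both the 362 at 10 to 25 kb and the 324 at 25 to 50 kb. The negative share went from 41.9% in the nearest class through 38.1% and 36.7% to 35.5% in the farthest. The calls numbered 2, 5, 3 and 0 in these classes (1.08%, 1.39%, 0.829% and 0%), beside 1.36% of all regions and 0.734% of all compact regions. Of the 324 farthest regions, none passed an FDR of 0.05 in csaw's test, 38 had an unadjusted p-value under 0.05, and the smallest FDR was 0.0574, at Tcp10c.

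**Figure D3:**
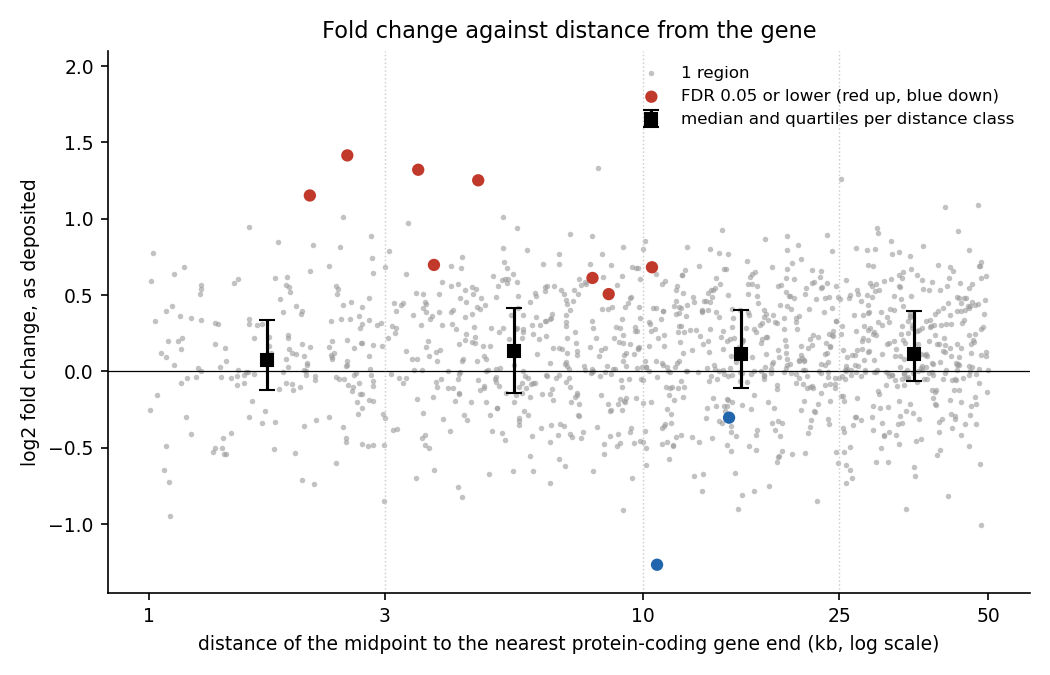
Deposited log2 fold change (y axis) of each of the 1232 regions against the distance of its midpoint to the nearest protein-coding gene end in kb (x axis, log scale); squares and bars give the median and quartiles in 4 distance classes, and coloured points are the 10 calls. The medians lie between 0.08 and 0.13. The 8 up calls all lie nearer than 11 kb, beside a median distance of 11947 bp for all 1232 regions. Past the threshold, regions listed up at an FDR of up to 0.1 lie as far as 48.4 kb (Glul, FDR 0.092).

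The strand of the nearest gene was known from the RefSeq start windows for 990 of the 1232 regions. Of these, 540 lay upstream of the gene's start and 450 downstream of its other end. The median deposited log2 fold change was 0.11 on both sides, with 38.0% and 38.2% negative. Calls numbered 4 (0.741%) and 5 (1.11%), beside 1.36% of all regions. The 242 regions without a known strand had a median of 0.12 and 1 call (0.413%).

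The number of windows in a region, gave no steady order either. Regions were 10 to 1210 bp wide with a median of 110 bp and 3 windows. The 185 regions of 5 windows had the highest median in the authors' deposited table, 0.24, with 27.0% negative. They held 5 of the 10 calls (2.70% of the 185, beside 1.36% of all regions). The 60 regions of 6 windows had 0.05, 45.0% negative and no call, with 9 at an unadjusted p-value under 0.05. In the 159 single-window regions the median was 0.15, with 2 calls (1.26%), both above a log2 fold change of 1. The other compact regions of 5 windows, 699 in all, had a median of 0.05 and 10 calls (1.43%). They pool regions inside genes and beyond 50 kb with those at gene ends, a class that leaned negative, so the 2 medians compare unlike mixes.

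The limits of the choice decide some of these counts. With 7 windows, 1 more than allowed, there were 43 regions at the same distances from genes, with a median of 0.29. Of these 43, 4 were called (9.3%, beside 1.36% of all regions), all up. The 60 regions of 6 windows, just inside the limit, had a median of 0.05 and no call. All 132 regions of 7 or more windows at these distances held 14 calls (10.6%), 9 up and 5 down, so the broad regions carried more calls than the 1232 compact ones. The kept region nearest to its gene lay 1005 bp from Sptan1, at -0.25 (p = 0.397 in the authors' deposited table), and the nearest one left out lay 999 bp from Socs3, at 0.85 (p = 0.0164). At the far limit, a region 49958 bp from Antxr2 was inside, at 0.01 in the authors' deposited table (p = 0.982), and one 50029 bp from Camk2n1 was outside, at 0.58 (p = 0.238).

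Genes around which several compact regions lie were looked at as loci. The 1232 regions had 1086 nearest genes, of which 961 had 1 region, 108 had 2, 14 had 3 and 3 had more. The 271 regions at genes with several held none of the 10 calls (0%, beside 1.36% of all regions). The 961 at genes with 1 held all 10 (1.04%). Regions of other classes are not counted here, and some genes of the calls, such as Itln1 and Ccdc13, have those. Of the 108 pairs, 40 were both positive, 15 both negative and 53 of either sign. Nuak1, a kinase related to AMP-activated kinase, had the most, with 5. Its 3 downstream regions had deposited log2 fold changes of 0.24, 0.37 and 0.53, and its 2 upstream regions -0.30 and 0.03, with a smallest p-value of 0.0867. Socs3, an inhibitor of cytokine signalling, had 4 regions, at 0.48, 0.71 and -0.46 downstream and -0.43 upstream (smallest p = 0.0721 in the authors' deposited table).

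Trim27, a ubiquitin ligase, also had 4, with -0.40 and -0.04 upstream and 0.37 and 0.70 downstream in the authors' deposited table (smallest p = 0.078). All 4 lie at tRNA genes. The midpoints of the upstream regions fall inside n-TLaag7 and n-TQctg7, 19 and 29 bp from an end, and those of the downstream regions lie 19 bp from an end of n-TAagc16 and 189 bp from one of n-TAagc17. At Edn3, which encodes endothelin 3, the 3 regions lay 34.4 to 40.5 kb downstream, with values of -0.04, 0.82 and 0.42 in the authors' deposited table, and the second of them had p = 0.0183 (FDR 0.277). All 3 regions upstream of the zinc-finger gene Zfp982 were negative, at -0.90, -0.46 and -0.65, and 1 had an unadjusted p-value under 0.05 in the authors' deposited table (p = 0.00605, FDR 0.159). The 3 regions at Hdac11, a histone deacetylase, were all positive, from 0.18 to 0.35, with none under an unadjusted p-value of 0.05.

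**Figure D4:**
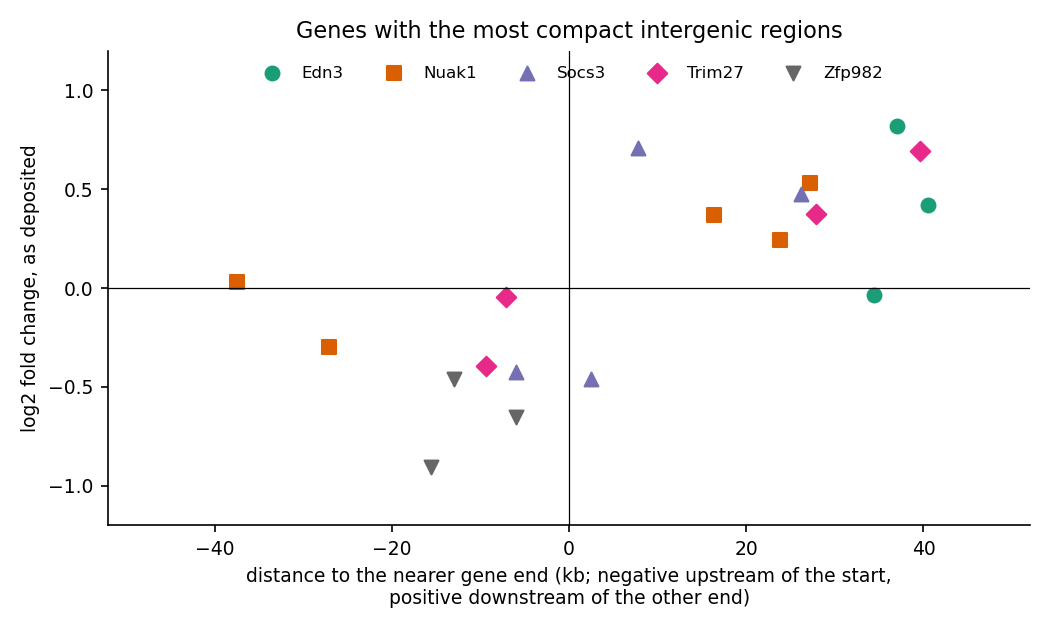
Deposited log2 fold changes (y axis) of the compact intergenic regions at the 5 genes chosen for their number of regions, by distance to the nearer gene end in kb (x axis, negative upstream of the start and positive downstream of the other end). Both signs occur at Nuak1, Socs3, Trim27 and Edn3, and all 3 regions at Zfp982 are negative.

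A region's sign said little about that of the next region of any class. Within 10 kb of another region of the table lay 250 of the 1232, and 125 of them had the same sign as it. For the 87 with a neighbour within 3 kb, 40 did (46.0%), with a Pearson r of 0.14 and a Spearman rho of 0.06 across these pairs. At 3 to 10 kb the share was 52.1% of 163 pairs. At 10 to 50 kb it was 54.1% of 429 pairs, and 52.6% of 553 beyond that. Neighbouring regions share libraries and can share reads, so the pairs are not independent.

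The islet transcription factors, the regulators among which NKX2.2 itself works, had 12 compact intergenic regions at 9 of the 51 genes listed. None was called in csaw's test and none had an unadjusted p-value under 0.05, beside 11.2% of all regions. The median deposited log2 fold change was 0.04, with 5 values negative and 7 positive. At Myt1, a zinc-finger factor of endocrine progenitors, 2 regions upstream of the start, at 4077 and 1927 bp, had 0.39 (p = 0.072) and 0.52 (p = 0.4) in the authors' deposited table. The winged-helix factor gene Rfx6 had 1 region 29.1 kb downstream at 0.49 (p = 0.131), and Irx1, an Iroquois homeobox gene of alpha cells, 1 region at 0.35 (p = 0.271), by the authors' deposited table. Upstream of Pax6, a paired-box activator of glucagon transcription, there were 2, at -0.32 (p = 0.275) and 0.08 (p = 0.787) in the authors' deposited table, both inside the antisense gene Pax6os1.

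Sox4, an HMG-box factor, had regions 5606 and 21081 bp upstream at -0.30 and 0.01 in the authors' deposited table. The ETS factor gene Etv1 had 1 region at -0.50 (p = 0.104), Prox1 1 at 0.30 (p = 0.333), the LIM-homeodomain gene Isl1 1 at -0.05 (p = 0.876), and Foxa2, a forkhead pioneer factor, 1 at -0.13 (p = 0.67), 49.7 kb away, all by the authors' deposited table. These values lie on both sides of 0, and no region of this list passed the test. No compact intergenic region lay nearest to Gcg, which encodes glucagon.

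Klf4 itself had 1 such region, 9305 bp upstream of its start on chromosome 4 from 55541751 to 55541810 with its midpoint inside the lncRNA Gm12506 and 37 bp from an end of the lncRNA Gm34343. The authors' deposited table lists it at 0.45 (p = 0.359, FDR 0.866). Over the KLF and SP factors there were 5 regions, 1 each at Klf2 (0.29), Klf3 (-0.43), Klf4, Klf10 (-0.34) and Sp4 (0.45). None had an unadjusted p-value under 0.05, and the smallest was 0.149, at Klf3.

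Genes of the alpha-cell list, which holds hormone processing and amino acid transport, had 3 regions, all positive and none called. Slc38a5, the glutamine transporter of alpha cells, had 0.29 (p = 0.0685), the prohormone convertase gene Pcsk1 0.28 (p = 0.283), and Irx1 the value given above from the authors' deposited table. The list of beta and delta lineage genes had 2. They are the called region at Dlk1 and a region near Abcc8, the sulfonylurea receptor, at 0.01 (p = 0.98 in the authors' deposited table).

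Granule and exocytosis genes had 15 regions, 12 positive and 3 negative, with a median of 0.27. None was called, and 3 had an unadjusted p-value under 0.05 (20.0% of 15, beside 11.2% of the table). Rab3c, a GTPase of secretory vesicles, had 0.69 (p = 0.021), Stxbp5l, a tomosyn that binds syntaxin, 0.71 (p = 0.0378), and Syt7, a calcium sensor of exocytosis, the -0.85 given above, all from the authors' deposited table. The granule proteins Chga and Scg2 had 2 regions each, at -0.43 and 0.59 and at 0.15 and 0.67 in the authors' deposited table.

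Ion channel genes, chosen by the start of their symbols, had 11 regions, 10 of them positive, with a median of 0.26. None was called and 2 had an unadjusted p-value under 0.05 (18.2%, beside 11.2%). These were at Kcnmb2, an auxiliary subunit of calcium-activated potassium channels (0.55, p = 0.0292), and Scnn1b, a subunit of the epithelial sodium channel (0.61, p = 0.0439), in the authors' deposited table. The T-type calcium channel gene Cacna1h had 0.70 (p = 0.0549 in the authors' deposited table). Trp53inp2 and Trp53rkb entered by their symbols and are not channel genes. For cAMP and G-protein signalling there were 9 regions, 5 positive, with none under an unadjusted p-value of 0.05. At Pde10a, a phosphodiesterase, 2 regions 2250 bp apart had -0.42 (p = 0.0891) and 0.64 (p = 0.112) in the authors' deposited table, and Rapgef4, the cAMP sensor EPAC, had 0.58 (p = 0.174).

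Adhesion and axon guidance genes had 13 regions, 12 positive, with a median of 0.24 and none called. The only unadjusted p-value under 0.05, 0.00825, was at Ephx3, with 0.58, an epoxide hydrolase gene that entered by its symbol and not by its function. Cdh13, which encodes T-cadherin, had 0.69 (p = 0.054), and Pcdh19 0.55 (p = 0.106), in the authors' deposited table. Solute carrier genes had 24 regions, 15 positive and 9 negative, with a median of 0.18. None was called and 3 had an unadjusted p-value under 0.05 (12.5%, beside 11.2%). Among them were regions at the vesicular GABA transporter gene Slc32a1 (-0.81, p = 0.0177) and at the zinc transporter gene Slc39a11 (0.91, p = 0.0213 in the authors' deposited table).

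Chromatin regulators and corepressors had 12 regions at 9 genes, with a median of 0.18 and none under an unadjusted p-value of 0.05. In the authors' deposited table the demethylation-linked gene Arid5b had 0.47 (p = 0.255). Tle3, a Groucho-family corepressor, had 0.01 in the authors' deposited table. Small GTPases and their regulators had 18 regions, 10 positive, with a median of 0.15 and 2 under an unadjusted p-value of 0.05 (11.1%, beside 11.2%), Rab3c and Tbc1d31 (-0.67, p = 0.0353 in the authors' deposited table). Zinc finger genes had 22 regions, 11 of either sign, with a median of 0.001. None was called, and 5 had an unadjusted p-value under 0.05 (22.7%, beside 11.2% of the table), 3 listed as up (beside 7.55%) and 2 as down (beside 3.68%). Among them were Zfp608 (1.08, p = 0.00459), Zfp982 (above) and Zfp90 (0.80, p = 0.0124), by the authors' deposited table.

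Markers of exocrine, ductal and mesenchymal cells had 3 regions and none called. In the authors' deposited table these lay at the elastase gene Cela3b (0.81, p = 0.0197), the endothelial gene Pecam1 (-0.42, p = 0.104) and the collagen gene Col1a2 (0.36, p = 0.705). Over the lists, then, Dlk1 held the only call. List medians ran from 0.001 to 0.36, beside 0.11 for all 1232 regions, and 5 of the 13 lists hold under 10 regions.

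**Figure D5:**
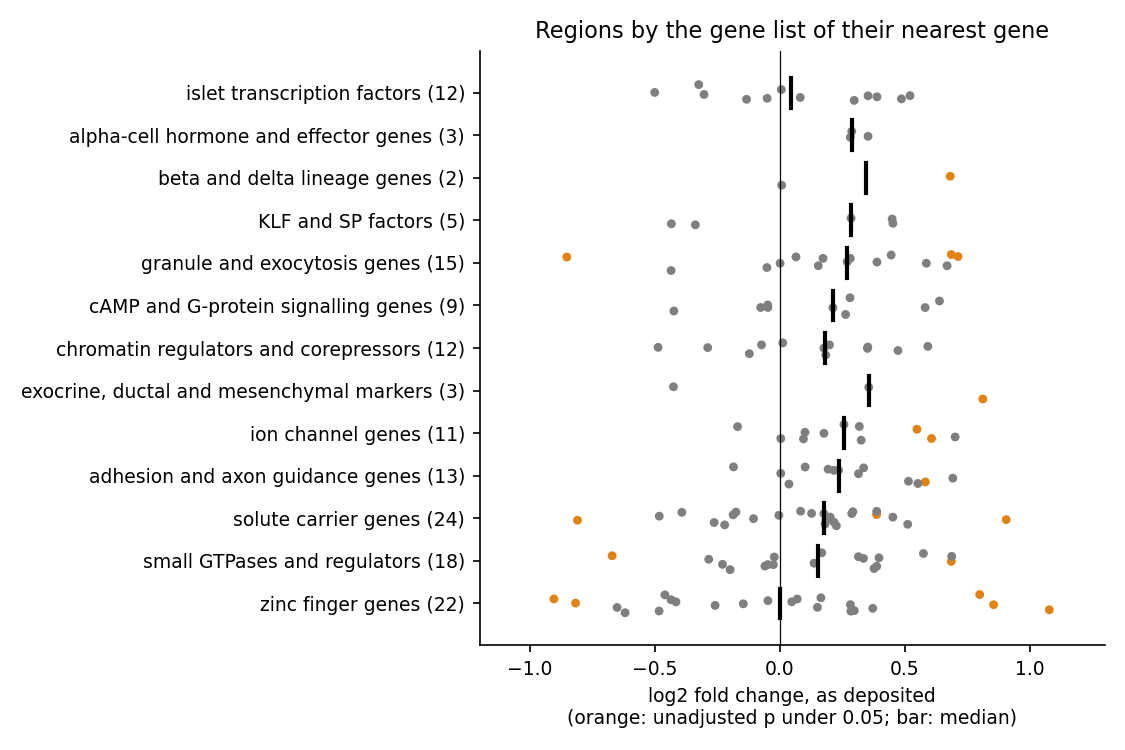
Each point is a compact intergenic region, placed by its deposited log2 fold change (x axis) in the row of the list that holds its nearest gene, with the number of regions in parentheses; bars are medians and orange points have an unadjusted p-value under 0.05. Medians are at or above 0 in every row, and points on both sides of 0 occur in 11 of the 13 rows.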

How the data were processed

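NKX2.2 ChIP-seq of alphaTC6 cells was compared between 3 Klf4-knockdown and 4 scramble samples by the authors with csaw, per the series' design text. The submitters' processing notes name mm10, Bowtie2, MACS2 and FastQC. Scaling, numerator and log base of the log2 fold changes deposited by the authors are not given (base 2 is csaw's convention), nor is the model behind the p-values and FDR values deposited by the authors. Depth per sample is unknown. Window filter and use of input are not given in the sources used here.

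All 6758 deposited FDR values equal a Benjamini-Hochberg adjustment over the table (tolerance 1e-06). Midpoints were placed against 21883 protein-coding genes of RefSeq GRCm38.p6, the assembly behind mm10. The placement was tested on simulated regions. Counts, shares and medians were computed with Python 3.11.15, numpy 2.4.6, pandas 2.3.3 and scipy 1.17.1, and figures drawn with matplotlib 3.10.9. No test was run over regions, which are not replicates, and the planned count test was dropped because counts for single libraries are lacking.

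Named regions were those at an FDR of 0.05, the 5 highest and 5 lowest fold changes, up to 3 smallest p-values per gene list, all regions at islet factors, Gcg and Klf4, the 5 genes with most regions (ties by smallest p-value), and those at the limits; regions up to an FDR of 0.1, Hdac11, the printed sequences, Malat1 and further list examples were chosen after their values were seen. The regions and gene lists were chosen with earlier results of these data known. Some regions that this rule names are not reported here.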

Additional observations from a re-analysis of the deposited data

How the results depend on the processing

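No paired analysis was possible because no column belongs to a sample or a replicate; for the same reason leaving out replicates, another normalization and a low-count filter were not run. The 10 calls (8 up, 2 down) depended on the threshold. An FDR of 0.01 left 0 (0 up, 0 down; 146 regions had an unadjusted p-value under 0.05), an FDR of 0.1 gave 21 (15 up, 6 down), and a further limit of 1 on the absolute log2 fold change left 5 (4 up, 1 down). Allowing up to 10 windows gave 19 calls. The other limits on distance, windows, gene type, edge and chromosome X gave 8 to 14. The median log2 fold change, 0.11, became 0.22 with the best window, which is picked for its small p-value, and stayed between 0.11 and 0.14 under the other alternatives, one of which, leaving out regions at genes of other types (9 calls, median 0.14), was chosen after seeing the data. The negative share stayed between 35.1% and 38.3%. Since depth is unknown, a region that missed the threshold cannot be called unchanged.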

Other observations

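Compact intergenic regions were also placed against RefSeq genes that do not code for protein. The midpoint of 259 of the 1232 lay inside such a gene, and for 243 of them that gene was assigned as a lncRNA. The authors' values of these 243 had a median of 0.08. Among them 1 region, that near Ninj1, was called (0.412%, beside 1.36% of all regions). An end of such a gene lay within 1 kb of 158 regions. These had a median of 0.08, none was called in csaw's test and 11 had an unadjusted p-value under 0.05 (6.96%), 6 up and 5 down. The 894 regions away from any such gene had a median of 0.14, 9 calls (1.01%, beside 1.36% of all regions) and 114 regions under that p-value (12.8%, beside 11.2%), 92 up and 22 down.

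By the gene of the nearest such end, with ties given to the shorter gene, 17 of these 158 regions lay at tRNA genes, with a median of 0.11, 6 negative values and none under an unadjusted p-value of 0.05. Of the 6 regions at small nuclear RNA genes, 5 were positive in the authors' deposited table, with a median of 0.52 and 1 under that p-value. The 16 at pseudogenes had a median of 0.08, with 2 under that p-value (12.5%), both negative, and the 116 at lncRNAs a median of 0.07, with 8 (6.90%), 5 up and 3 down. The differences between these classes were not tested.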
